A study of Mus musculus with 18 samples.

Results

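The 8 genes described here encode components of complement and receptors for its small activation fragments: C1qa, C1qb, C1qc, C3, Cfb, Cfp, C3ar1 and C5ar1. They were listed by symbol with earlier results of these data in view, and they were found by matching the Ensembl gene IDs of the count files to GENCODE M21. All 8 were among the 55536 gene IDs of the files, and all 8 passed the filter on low counts with 28334 genes in all. The members were chosen by their CPM levels and their differences between the groups of these same libraries. Their values, and whether they passed a threshold, are therefore given as a description with no p-value.

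Complement is a cascade of plasma proteins that marks particles for uptake and recruits leukocytes. C1q, built from A, B and C chains, starts the classical pathway when it binds antibody or other surfaces, and macrophages and dendritic cells are its main source. C3 is the component on which all pathways converge, factor B (Cfb) supplies the protease of the alternative pathway, and properdin (Cfp) stabilises that enzyme and is made by neutrophils, monocytes and other leukocytes. The fragments C3a and C5a signal through the receptors C3ar1 and C5ar1 on myeloid cells.

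RNA was sequenced in bulk, after poly(A) selection, from bone marrow of BALB/c mice that had been cultured for 4 days to induce myeloid cells. The marrow was WT or came from mice described as Cysltr1 deficient, which lack the type 1 receptor for cysteinyl leukotrienes. The background strain of the deficient mice, the allele and the age of the animals were not given in the sources used here. All 6 groups received GM-CSF (40 ng/mL), which drives growth of granulocytes and macrophages, so no culture was without it. In each genotype it was given alone, with IL-6 at 40 ng/mL, or with 50% (v/v) medium conditioned for 24 h by EMT6 cells, a mouse mammary carcinoma line. Each group had 3 libraries, each from a pool of 3 mice. Whether the pools of a group were separate is not stated, so the spread between libraries may be technical. The labelled tissue is bone marrow, and 8 of 8 macrophage markers and 9 of 9 neutrophil markers had a group mean of at least 1 CPM (counts scaled to a common library total) in all 6 groups. So did all listed markers of monocytes, eosinophils, mast cells and basophils, B cells and megakaryocytes.

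Libraries held 9.58 to 32.0 M counts in genes, with the lowest totals in the EMT6 medium groups. Reads outside annotated features averaged 14.2% to 19.5% of the total in the groups without EMT6 medium. With it they were 36.2% ± 1.39 (SD, n = 3) in WT and 50.2% ± 0.152 in labelled Cysltr1-/- libraries. The transcript of Cysltr1 itself was not lower where the label says deficient. WT libraries had 915 to 1718 Cysltr1 counts under GM-CSF, and labelled Cysltr1-/- libraries had 1271 to 1904. The ranges with IL-6 were 1575 to 1981 and 1867 to 1994, and those with EMT6 medium were 68 to 83 and 96 to 122. Counts of a whole gene cannot check an internal deletion, so the genotype is written as labelled. Within groups, each of 18 replicate pairs varied beyond sampling noise (chi-square per degree of freedom 1.64 to 7.51). Levels below are CPM after TMM scaling, a correction of library size for composition. Differences are log2 fold changes ± SE from edgeR's fit, with IL-6 and EMT6 medium each compared with the GM-CSF culture of that genotype, and labelled Cysltr1-/- with WT in the same culture. In bulk RNA, fewer cells of a type and less RNA per cell cannot be told apart.

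Sequence upstream of the start is shown for C1qb, C1qc and C3, because the C1q genes moved together while C3 did not move with them. The windows are RefSeq promoters on GRCm38.p6, all on the minus strand and printed 5′ to 3′, restricted to the 250 bases before the RefSeq start. Each was cut off at its first base in an annotated exon, counted from the 5′ end. For C1qc that left 99 bases. A promoter was found for 6 of the 8 members; C1qa and Cfb had none. Capitals mark a match to a searched motif. C1qb is at chr4:136886201-136886450, C1qc at chr4:136893066-136893164 and C3 at chr17:57228137-57228386.
C1qb: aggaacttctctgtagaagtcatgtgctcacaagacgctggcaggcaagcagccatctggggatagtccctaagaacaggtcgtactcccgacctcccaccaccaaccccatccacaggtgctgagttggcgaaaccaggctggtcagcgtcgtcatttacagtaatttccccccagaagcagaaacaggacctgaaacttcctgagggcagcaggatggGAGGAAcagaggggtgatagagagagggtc
C1qc: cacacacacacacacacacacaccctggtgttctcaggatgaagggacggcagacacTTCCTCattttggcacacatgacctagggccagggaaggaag
C3: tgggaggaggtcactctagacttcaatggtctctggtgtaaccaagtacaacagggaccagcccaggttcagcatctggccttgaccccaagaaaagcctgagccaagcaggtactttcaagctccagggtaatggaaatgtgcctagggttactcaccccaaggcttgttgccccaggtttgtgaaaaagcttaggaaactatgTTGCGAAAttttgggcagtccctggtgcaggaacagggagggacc
The C1qb match, GAGGAA, is the core of sites for PU.1, a transcription factor of myeloid cells, and lies at positions -30 to -25 from the start. C1qc holds the same letters on the other strand (TTCCTC) at -193 to -188. Its 99 bases adjoin the 5′ end of the annotated gene (chr4:136893065), so this match lies nearer to that end than to the RefSeq start. In C3 the capitals are a match to the C/EBP-like pattern TTGCNNAA at -45 to -38. Searches on both strands covered these 2 patterns, an ISRE pattern of interferon responses, TTCNNNGAA (a STAT pattern) and an NF-kB pattern, and found no overlap between matches. Of 32536 distinct mouse promoters searched over the same 250 bases, 23.4% held GAGGAA, 9.57% TTGCNNAA, 2.98% the ISRE pattern, 7.04% TTCNNNGAA and 7.28% the NF-kB pattern. The C3ar1 (246 bases) and Cfp (250 bases) windows held 0 matches, as did the 48 bases left for C5ar1. For C5ar1 all bases from the first exon base to the RefSeq start were left out, although only 28 of them were exonic. The windows of C5ar1 and C1qc (99 bases) are too short to set beside those shares. A match is a run of letters and not a measured binding site, and a missing match says only that these letters are not in the window.

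Levels of the members spanned a wide range in WT GM-CSF cultures. Per kilobase of exon, Cfp was highest at 769.5 ± 32.7 CPM per kb (SD, n = 3), followed by C3 at 459 ± 42.7, C5ar1 at 74.7 ± 2.87 and C3ar1 at 56.1 ± 3.47. The C1q chains were lower, at 19.8 ± 1.77 for C1qa, 14.6 ± 0.380 for C1qb and 12.7 ± 0.875 for C1qc, and Cfb was at 0.136 ± 0.0562. These cultures thus held abundant transcripts for the components C3 and properdin and for both receptors, low levels of the C1q chains, and Cfb counts near 0. The Cfb level may be too low, since most of its exon bases are shared with another annotated gene.

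**Figure D1:**
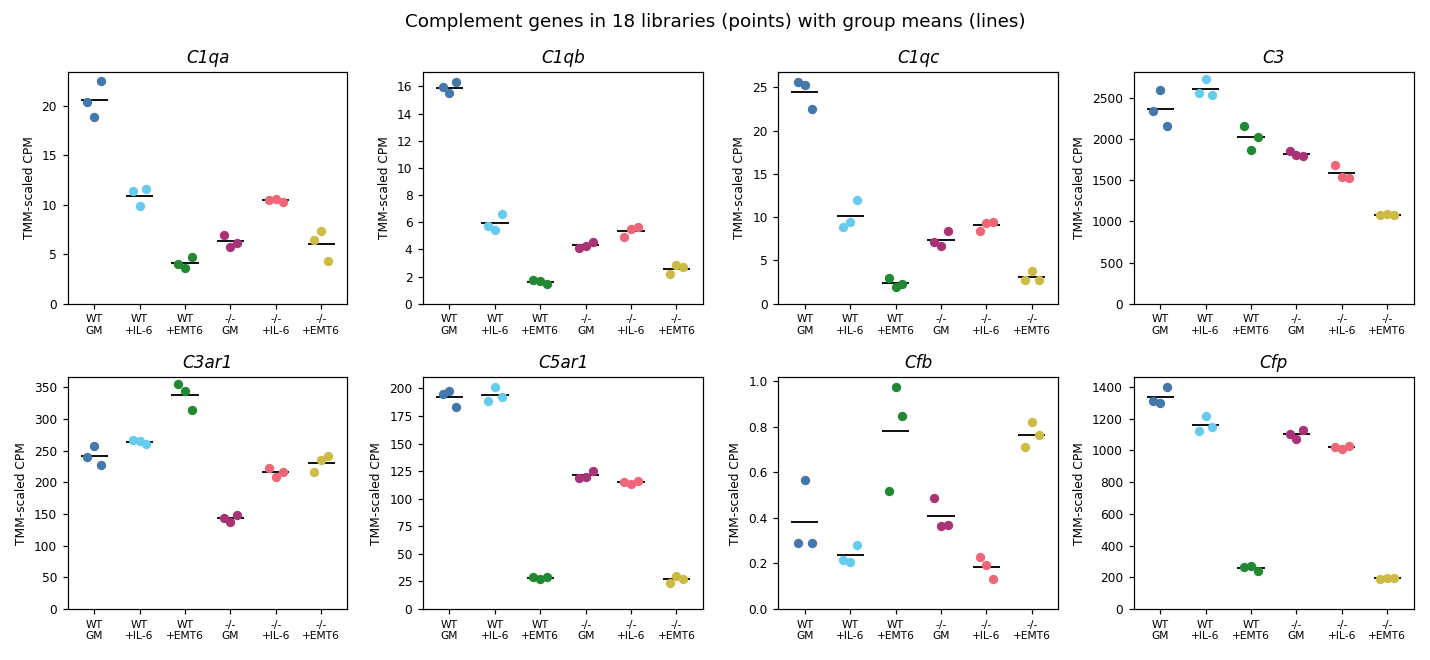
TMM-scaled CPM (linear axes from 0, 1 panel per gene) of the 8 members in each of the 18 libraries, by genotype and culture; points are libraries and lines are group means of 3. The C1q chains are highest in the WT GM-CSF libraries, C5ar1 and Cfp are low in all 6 EMT6 medium libraries, and Cfb lies below 1 CPM throughout.

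The counts of members past the threshold (adjusted p under 0.05 over all genes tested, edgeR's quasi-likelihood test) are given with the share of all tested genes past it, and nothing is read from them, since the same contrasts led to the choice of the members. With IL-6 in WT, 1 member was higher and 4 were lower, where 21.7% of all genes were called (10.4% higher, 11.3% lower). With IL-6 in labelled Cysltr1-/- marrow 2 were higher and 1 lower (14.3% of all genes, 5.54% higher and 8.77% lower). EMT6 medium in WT had 2 higher and 6 lower (81.3%, with 46.8% and 34.5%), and in labelled Cysltr1-/- marrow 2 higher and 5 lower (87.2%, with 54.3% and 32.9%). Between genotypes, 7 of 8 were lower in labelled-deficient GM-CSF cultures (27.3% of all genes, 10.1% higher and 17.2% lower). With IL-6 4 of 8 were lower (30.5%, with 12.1% higher and 18.4% lower). With EMT6 medium 2 were higher and 3 lower (52.1%, with 32.3% and 19.8%). The difference of the IL-6 effect between genotypes was called for 4 in the higher and 1 in the lower direction (7.38%, with 2.92% and 4.46%). That of the EMT6 medium effect was called for 5 and 1 (25.6%, with 13.2% and 12.3%). The median log2 fold change of the members was -2.34 with EMT6 medium in WT and -0.74 in labelled-deficient marrow, against 0.49 and 0.83 over all tested genes. For the genotype under GM-CSF the median was -0.71, against 0.04.

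The 3 chains of C1q are encoded side by side on mouse chromosome 4 (mm10, minus strand): C1qb at chr4:136880129-136886187, C1qc at chr4:136889804-136893065 and C1qa at chr4:136895917-136898803, each with 3 exon blocks and no overlapping gene. All 3 chains were highest in WT GM-CSF cultures and lowest in WT EMT6 medium cultures. In labelled-deficient cultures under GM-CSF each chain lay below its level in WT IL-6 cultures. The chains are needed together, since the C1q molecule contains all of them.

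C1qa was at 20.4, 18.8 and 22.5 CPM in the WT GM-CSF libraries, 11.4, 9.85 and 11.6 with IL-6, and 4.05, 3.60 and 4.77 with EMT6 medium. In labelled Cysltr1-/- marrow it was at 7.00, 5.77 and 6.12 under GM-CSF, 10.5, 10.6 and 10.3 with IL-6, and 6.40, 7.31 and 4.31 with EMT6 medium. The 3 WT cultures were separate from one another, and the WT GM-CSF libraries lay above all others; with IL-6 the genotypes overlapped, and so did labelled-deficient GM-CSF and EMT6 medium libraries. In WT the difference was -0.91 ± 0.10 with IL-6 and -2.31 ± 0.12 with EMT6 medium. In labelled Cysltr1-/- marrow IL-6 went the other way, at 0.73 ± 0.12. EMT6 medium there gave -0.06 ± 0.14 and did not pass the threshold; that value was 0.55 with library sizes alone and -0.33 with DESeq2 size factors, both past it. The genotype difference was -1.71 ± 0.11 under GM-CSF, -0.07 ± 0.11 with IL-6 and 0.53 ± 0.15 with EMT6 medium. The last of these rests on overlapping libraries and lost its call when any 1 of 3 EMT6 medium libraries was left out (0.28 to 0.41): WT replicate 1, and labelled Cysltr1-/- replicates 1 and 2.

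C1qb was at 15.9, 15.5 and 16.3 CPM in WT GM-CSF libraries, 5.72, 5.44 and 6.59 with IL-6, and 1.74, 1.65 and 1.43 with EMT6 medium. In labelled Cysltr1-/- marrow the values were 4.08, 4.23 and 4.58, then 4.89, 5.49 and 5.67 with IL-6, and 2.19, 2.84 and 2.71 with EMT6 medium. No 2 cultures of a genotype overlapped, while the IL-6 libraries of the genotypes overlapped with each other. In WT, C1qb differed by -1.42 ± 0.10 with IL-6 and -3.30 ± 0.13 with EMT6 medium. In labelled-deficient marrow the IL-6 difference was 0.32 ± 0.13, not past the threshold, and the EMT6 medium difference was -0.74 ± 0.16, which with library sizes alone was -0.13 and not called. The genotype difference was -1.90 ± 0.11 under GM-CSF, -0.15 ± 0.12 with IL-6 and 0.66 ± 0.19 with EMT6 medium. The EMT6 medium value was 0.48 without labelled Cysltr1-/- replicate 2 and 0.51 without a low-count filter, neither past the threshold.

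C1qc was at 25.6, 25.3 and 22.5 CPM in WT GM-CSF libraries, 8.85, 9.49 and 12.0 with IL-6, and 3.02, 1.89 and 2.28 with EMT6 medium. The labelled Cysltr1-/- libraries had 7.13, 6.62 and 8.41 under GM-CSF, 8.39, 9.33 and 9.40 with IL-6, and 2.74, 3.81 and 2.78 with EMT6 medium. As for C1qb, the WT cultures did not overlap, and WT GM-CSF stood above all other groups. In WT the IL-6 difference was -1.26 ± 0.10 and the EMT6 medium difference -3.32 ± 0.13, and in labelled-deficient marrow they were 0.31 ± 0.12 (not called) and -1.25 ± 0.16. The genotype differed by -1.74 ± 0.11 under GM-CSF, -0.17 ± 0.11 with IL-6 and 0.33 ± 0.20 with EMT6 medium, the last not past the threshold.

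The difference between genotypes in the culture effect was in one direction for the chains. For IL-6 it was 1.64 ± 0.15 for C1qa, 1.75 ± 0.16 for C1qb and 1.57 ± 0.16 for C1qc, and for EMT6 medium 2.25 ± 0.19, 2.56 ± 0.22 and 2.07 ± 0.23. These values share the GM-CSF libraries of both genotypes with the genotype difference under GM-CSF. C1qb and C1qc were the closest pair of the 8 members over the 6 groups, at a root mean square difference of 0.18 log2 between centred group means, against 0.34 for C1qa with C1qb.

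The chains did not keep 1 ratio to each other. Per kilobase, C1qa over C1qb was 1.35 ± 0.0859 (SD, n = 3) in WT GM-CSF libraries, 1.94 ± 0.124 with IL-6 and 2.74 ± 0.655 with EMT6 medium. In labelled Cysltr1-/- marrow the ratio was 1.54 ± 0.222, 2.06 ± 0.170 and 2.47 ± 0.725. In WT each IL-6 and EMT6 medium library lay above each GM-CSF library, and in labelled-deficient marrow the EMT6 medium libraries, at 3.06, 2.70 and 1.66, overlapped with GM-CSF alone. C1qc over C1qb had group means of 0.680 to 0.968. Counts behind these values were low with EMT6 medium, at 27 to 37 reads for C1qb in WT libraries.

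The depth bears on these low values. Reads outside annotated features would by their density give genes of these lengths 0.109 to 0.202 CPM under GM-CSF in WT and 0.305 to 1.015 CPM with EMT6 medium. The C1q chains were at 3.06 to 13.6 times that level in EMT6 medium groups and at 30.5 to 189 times elsewhere. After this level was subtracted, the EMT6 medium differences in WT were -2.15, -3.34 and -3.41 for C1qa, C1qb and C1qc. The macrophage markers summed to 2599 to 2881 CPM in WT GM-CSF, 3111 to 3303 in WT IL-6 and 1707 to 1838 in WT EMT6 medium libraries, and to 2105 to 2155, 2502 to 2626 and 1024 to 1170 in labelled-deficient ones. Of the 8 markers, all were at 1 CPM or more in each group and none was at 0. The IL-6 libraries of WT, with C1q lower, had a higher macrophage sum than GM-CSF alone. The dendritic cell markers, 7 in all with none at 0, summed to 7452 to 7865, 3949 to 4219 and 913 to 1009 CPM in WT and to 4552 to 4643, 3087 to 3135 and 710.0 to 752 CPM in labelled-deficient cultures. Cd74 and H2-Aa made up most of the dendritic cell sums. They averaged 6152 and 1425 CPM in WT GM-CSF and 696 and 224 in WT EMT6 medium cultures. With EMT6 medium Flt3 and Xcr1 were higher in both genotypes, in WT at 15.2 and 1.91 CPM against 6.03 and 0.604. Zbtb46 and Cd209a were lower in both, and Siglech was lower in WT and higher in labelled-deficient marrow. The part of either cell type in the C1q values was not tested.

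C3 (chr17:57203970-57228136, minus strand, 42 exon blocks) was counted at 14613 to 62668 reads in each library. Its values were 2339, 2591 and 2154 CPM in WT GM-CSF libraries, 2562, 2732 and 2533 with IL-6, and 2157, 1872 and 2030 with EMT6 medium. Labelled Cysltr1-/- libraries had 1852, 1803 and 1798 under GM-CSF, 1680, 1538 and 1529 with IL-6, and 1081, 1091 and 1076 with EMT6 medium. Each labelled-deficient library lay below each WT library of any culture. Within WT the cultures overlapped with GM-CSF alone, and within labelled-deficient marrow they did not.

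The genotype difference of C3 was -0.38 ± 0.05 under GM-CSF, -0.72 ± 0.05 with IL-6 and -0.90 ± 0.05 with EMT6 medium. In labelled-deficient marrow the IL-6 difference was -0.20 ± 0.05 and the EMT6 medium difference -0.74 ± 0.05. The IL-6 value there was -0.18 and no longer called without labelled Cysltr1-/- IL-6 replicate 2 or without replicate 3. In WT the IL-6 difference of 0.14 ± 0.05 was called by a small margin and lost the call in 13 of the 18 fits that left out a library (0.08 to 0.16). The EMT6 medium difference in WT was -0.22 ± 0.05, but it was 0.27 with library sizes alone, 0.05 with a filter at a mean of 5 CPM and 0.04 after subtraction of reads outside features; its direction thus depends on the processing. The culture effect differed between genotypes by -0.34 ± 0.07 for IL-6 and -0.52 ± 0.08 for EMT6 medium, the opposite direction to C1q. Fibroblast markers, a type that can make C3, were low: 5 markers summed to 7.62 to 15.5 CPM in the 4 groups without EMT6 medium, 33.9 to 37.5 in WT EMT6 medium and 48.9 to 77.2 in labelled-deficient EMT6 medium libraries, with none at 0. The part of this cell type in the C3 values was not tested.

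Properdin, Cfp (chrX:20925454-20931555, minus strand), was the most abundant member per kilobase under GM-CSF and was much lower with EMT6 medium. WT libraries had 1310, 1297 and 1401 CPM under GM-CSF, 1119, 1216 and 1147 with IL-6, and 265, 273 and 242 with EMT6 medium. Labelled Cysltr1-/- libraries had 1101, 1071 and 1130, then 1022, 1006 and 1027, and 188, 197 and 195. No 2 cultures of a genotype overlapped, and within each culture the genotypes were separate, although labelled-deficient GM-CSF libraries overlapped with WT IL-6 ones. The EMT6 medium difference was -2.36 ± 0.05 in WT and -2.51 ± 0.05 in labelled-deficient marrow, that is 5.14-fold and 5.70-fold lower. The IL-6 difference was -0.20 ± 0.05 and -0.11 ± 0.05, the latter not called. The genotype difference was -0.28 ± 0.05 under GM-CSF, -0.19 ± 0.05 with IL-6 and -0.43 ± 0.05 with EMT6 medium; with library sizes alone the IL-6 value was -0.04 and not called.

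Neutrophil markers, like Cfp, were lower with EMT6 medium. The 9 markers, none at 0, summed to 8995 to 10080 CPM in WT GM-CSF, 5628 to 5831 in WT IL-6 and 1783 to 2043 in WT EMT6 medium libraries, and to 4133 to 4387, 2159 to 2230 and 1048 to 1316 in labelled-deficient ones. The monocyte sum (4 markers, none at 0) was 774 to 826, 1200.0 to 1273 and 103 to 111 CPM in WT, and 479 to 491, 516 to 563 and 86.2 to 104 in labelled-deficient cultures. With IL-6 the neutrophil sum was lower in both genotypes, where Cfp differed by the small amounts given above. The part of either cell type in Cfp was not tested.

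Factor B, Cfb (chr17:34856374-34862518, minus strand), had 3 to 16 counts in each library, near or under the level expected from reads outside features over its full exon length. The groups averaged 0.383 ± 0.159 CPM in WT GM-CSF, 0.235 ± 0.0417 with IL-6 and 0.781 ± 0.236 with EMT6 medium, and 0.408 ± 0.0687, 0.186 ± 0.0499 and 0.766 ± 0.0548 in labelled-deficient marrow. That is 0.465 to 1.30 times the background level computed over all exon bases. The calls for EMT6 medium, 1.06 ± 0.39 in WT and 0.89 ± 0.40 in labelled-deficient marrow, are differences between counts of at most 16 in each library. The call in labelled-deficient marrow was lost under 12 alternatives (0.57 to 0.81), DESeq2 and 8 fits that left out a library among them. The WT call was lost under 4 (0.87 to 0.93), which were DESeq2 and 3 fits that left out a library. Cfb was not tested after background subtraction. Of the Cfb exon bases, 79.5% are shared on the same strand with Gm20547, an annotated read-through from C2 into Cfb. Gm20547 had 0 counts in all 18 libraries, so no read in shared bases was credited to it. Reads in those bases may have been counted for neither gene, which the sources used here do not state. If they were not counted, the background level above is too high for Cfb and its ratio to that level too low. The CPM per kb of Cfb over all exon bases would then be too low as well.

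**Figure D2:**
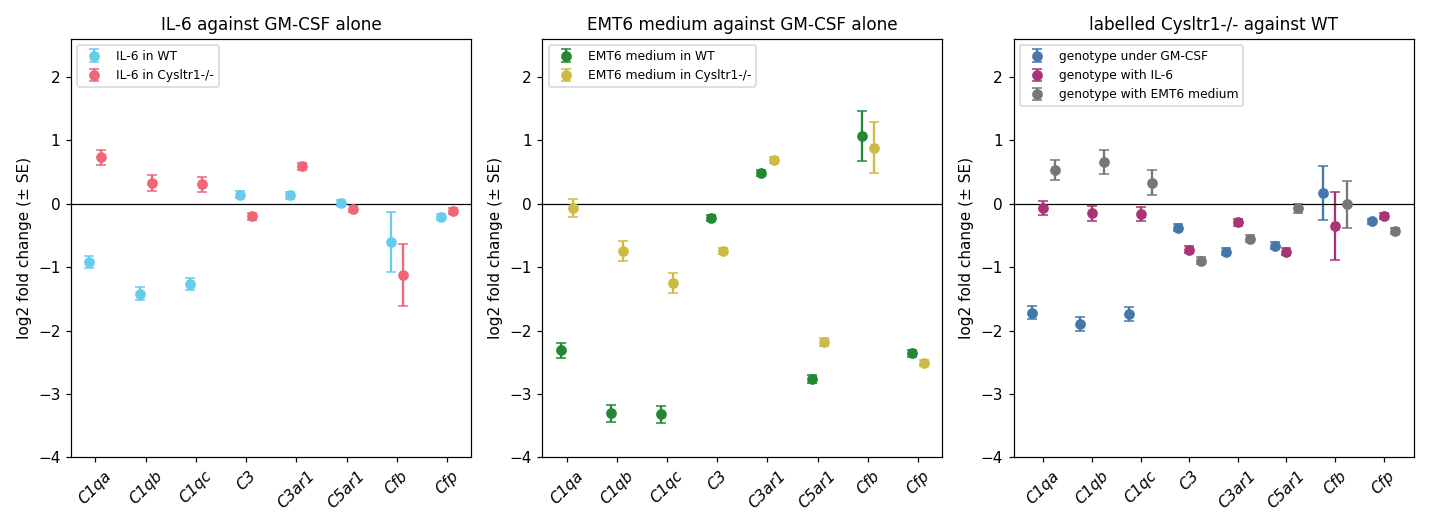
Log2 fold changes (points) ± SE (bars) of the 8 members for IL-6, EMT6 medium and the labelled Cysltr1-/- genotype, from the fit of all 18 libraries. C1qa, C1qb and C1qc are below 0 with IL-6 in WT and above 0 in labelled-deficient marrow, and the genotype values of the chains under GM-CSF lie between -1.71 and -1.90.

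The receptor genes C3ar1 and C5ar1 went in opposite directions with EMT6 medium. C3ar1 (chr6:122847138-122856161, minus strand) encodes the receptor for C3a, and C5ar1 (chr7:16246743-16259540, minus strand) the main signalling receptor for C5a. Neither gene overlaps another.

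C3ar1 was at 239, 257 and 228 CPM in WT GM-CSF libraries, 266, 266 and 261 with IL-6, and 355, 344 and 314 with EMT6 medium. Labelled Cysltr1-/- libraries had 143, 138 and 148 under GM-CSF, 223, 208 and 216 with IL-6, and 216, 234 and 242 with EMT6 medium. In each genotype GM-CSF alone was the lowest culture, without overlap with either other one. The IL-6 difference was 0.13 ± 0.05 in WT, not past the threshold here though past it with library sizes alone and in DESeq2, and 0.59 ± 0.05 in labelled-deficient marrow. EMT6 medium gave 0.49 ± 0.05 and 0.69 ± 0.05. The genotype difference was -0.75 ± 0.05 under GM-CSF, -0.29 ± 0.05 with IL-6 and -0.55 ± 0.05 with EMT6 medium. The IL-6 effect differed between genotypes by 0.46 ± 0.07. The EMT6 medium effect differed by 0.20 ± 0.07, a value that lost its call in 16 of the 18 fits without a library and reversed to -0.03 without a low-count filter.

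C5ar1 was at 194.7, 197.5 and 183.5 CPM in WT GM-CSF libraries, 188, 201 and 192 with IL-6, and 29.2, 26.8 and 28.7 with EMT6 medium. In labelled Cysltr1-/- marrow it was at 119, 120.0 and 125, then 115, 113 and 116 with IL-6, and 23.8, 29.6 and 27.7 with EMT6 medium. The EMT6 medium libraries of both genotypes overlapped with each other and stood far below the rest, and the GM-CSF and IL-6 libraries were separate by genotype. EMT6 medium gave -2.76 ± 0.06 in WT (6.80-fold lower) and -2.17 ± 0.06 in labelled-deficient marrow (4.49-fold lower), an effect that differed between genotypes by 0.59 ± 0.09. The IL-6 differences were 0.01 ± 0.05 and -0.08 ± 0.05, and neither was called. The genotype difference was -0.66 ± 0.05 under GM-CSF and -0.75 ± 0.05 with IL-6. With EMT6 medium it was -0.07 ± 0.07 and not called, while it was 0.17 with library sizes alone and -0.18 with DESeq2 size factors.

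The ratio of the receptors to each other differed by culture. Per kilobase, C3ar1 over C5ar1 was 0.751 ± 0.0237 (SD, n = 3) in WT GM-CSF libraries, 0.815 ± 0.0281 with IL-6 and 7.16 ± 0.575 with EMT6 medium. In labelled Cysltr1-/- marrow it was 0.704 ± 0.0168, 1.12 ± 0.0297 and 5.12 ± 0.352. The EMT6 medium libraries of both genotypes lay above all others, and the labelled-deficient IL-6 libraries lay above those of the remaining groups without EMT6 medium.

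**Figure D3:**
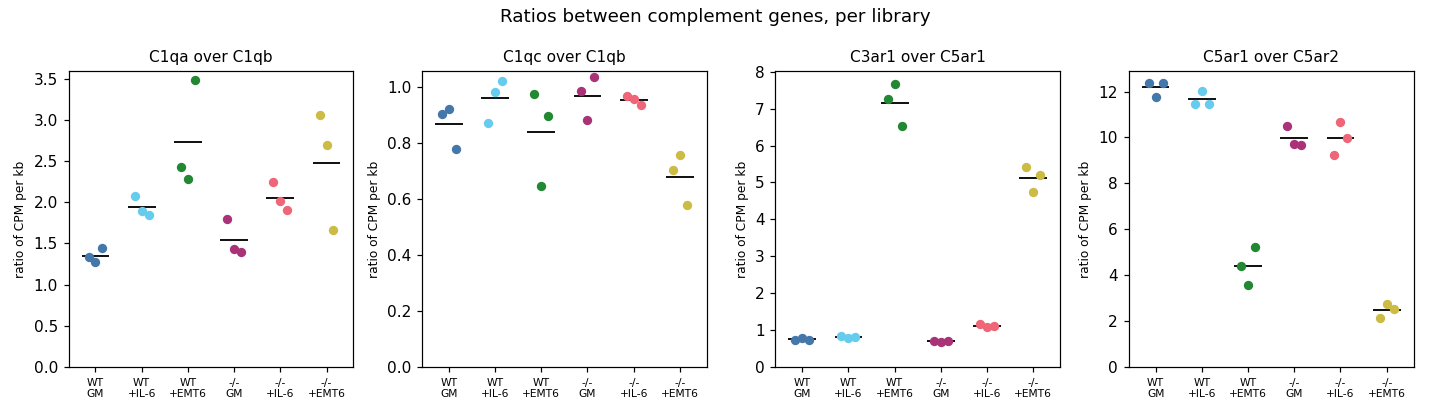
Ratios of CPM per kb between complement genes in each library (points) with group means (lines) for 6 groups of 3. C3ar1 over C5ar1 is above 4 in the EMT6 medium libraries and at most 1.155 elsewhere, and C5ar1 over C5ar2 is at least 9.24 without EMT6 medium and at most 5.24 with it.

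The other complement genes were taken from a list of 46 by role, of which 44 were tested; 15 had a group mean of at least 5 CPM and 31 did not. Their counts past the threshold were 2 higher and 4 lower with IL-6 in either genotype. Of all genes, 10.4% were higher and 11.3% lower in WT, and 5.54% and 8.77% in labelled-deficient marrow. With EMT6 medium 17 were higher and 15 lower in WT and 20 higher and 12 lower in labelled-deficient marrow. The shares of all genes were 46.8% and 34.5% in WT, and 54.3% and 32.9% in labelled-deficient marrow. After subtraction of reads outside features, 30 of the genes were tested, and the counts were 9 higher and 17 lower in WT and 10 and 14 in labelled-deficient marrow. For the genotype, 2 were higher and 11 lower under GM-CSF, 7 and 13 with IL-6, and 14 and 8 with EMT6 medium, the last 6 and 9 after subtraction. Before subtraction the shares of all genes were 10.1% and 17.2%, 12.1% and 18.4%, and 32.3% and 19.8% in that order. No share of all genes is given after subtraction, so nothing is read from those counts. Median log2 fold changes over the tested list were -0.16 and 0.58 in WT with IL-6 and with EMT6 medium, and -0.04 for the genotype under GM-CSF, against -0.03, 0.49 and 0.04 over all genes.

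Among initiators, the protease C1ra and the lectin ficolin B (Fcnb) had a group mean of at least 5 CPM and stood at 29.6 times background or more under GM-CSF. Fcnb was at 15.8 ± 0.505 CPM in WT GM-CSF and 4.96 ± 0.444 in labelled-deficient GM-CSF cultures (-1.67 ± 0.11). Fcnb reached a mean of 5 CPM only in the WT GM-CSF and WT IL-6 groups, so its differences are given as a description. It fell with IL-6 in both genotypes (-0.70 ± 0.10 and -1.26 ± 0.15 in labelled-deficient marrow). C1ra fell with EMT6 medium in WT (-2.81 ± 0.14), and its IL-6 effect differed between genotypes by -0.47 ± 0.14 (adjusted p = 0.0263, edgeR). That call was lost after background subtraction (-0.48, adjusted p = 0.191) and in 6 of the 18 fits that left out a library (-0.48 to -0.39): without WT GM-CSF replicate 1, WT IL-6 replicate 2, labelled Cysltr1-/- GM-CSF replicates 2 or 3, or labelled Cysltr1-/- IL-6 replicates 1 or 3. With EMT6 medium C1ra was at 2.07 times background in WT and 1.33 times in labelled-deficient marrow, and the difference in WT was -3.41 after subtraction. The serine protease Masp1 of the lectin pathway lay at 1.08 to 1.40 times background. Factor D (Cfd), which cleaves factor B, rose with EMT6 medium by 1.79 ± 0.22 in WT and 2.12 ± 0.20 in labelled-deficient marrow and reached 4.65 and 7.22 CPM, against 1.29 and 1.62 CPM under GM-CSF. It stood at 12.5 to 17.2 times background in every group. Cfd and Masp1 reached a mean of 5 CPM only in labelled-deficient EMT6 medium cultures. Naming by that level favours genes that are higher there, so their differences are a description. Hc, the gene for C5, was at most at 1.16 times background, and 9 complement genes lay under it in all 6 groups. That count takes every exon base as countable, also those shared between genes.

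Regulators showed both directions. Susd4, an inhibitor of complement convertases, was at 32.5 ± 1.76 CPM in WT GM-CSF and 14.4 ± 0.942 in labelled-deficient GM-CSF cultures, and fell with EMT6 medium (-3.48 ± 0.11 and -1.34 ± 0.11). The difference between those effects was 2.14 ± 0.17 (adjusted p = 3.42e-14, edgeR); with EMT6 medium Susd4 was at 2.54 and 2.79 times background. Clu, which encodes clusterin, an inhibitor of the terminal complex, rose with IL-6 by 0.34 ± 0.06 and 0.41 ± 0.06 and fell with EMT6 medium (-1.09 ± 0.07 and -1.32 ± 0.07). Cd55, a surface inhibitor of convertases, rose with EMT6 medium by 0.68 ± 0.09 and 0.49 ± 0.10, and Cr1l, another surface regulator, fell (-1.60 ± 0.07 and -1.78 ± 0.07). In labelled-deficient marrow the Cd55 call was lost with DESeq2 (0.22, adjusted p = 0.0839) and, with edgeR, without GM-CSF replicate 2 (0.18, adjusted p = 0.111) or EMT6 medium replicate 3 (0.18, adjusted p = 0.106).

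Of the 8 receptors other than the members, 5 were lower with EMT6 medium and 1 higher in each genotype, where 34.5% of all genes were lower in WT and 32.9% in labelled-deficient marrow. After background subtraction 5 of 7 tested were lower in WT and 4 of 7 in labelled-deficient marrow, with no share of all genes to set beside them. The second C5a receptor, C5ar2, lies next to C5ar1 on chromosome 7. It was at 21.9 ± 1.36 CPM in WT GM-CSF and 9.07 ± 1.43 in WT EMT6 medium libraries (-1.27 ± 0.09), and at 16.9 ± 1.09 and 15.2 ± 0.288 in labelled-deficient ones (-0.15 ± 0.09, adjusted p = 0.115 by edgeR, and 0.47 with library sizes alone). The difference between these effects was 1.12 ± 0.13 (adjusted p = 1.61e-09, edgeR). Per kilobase C5ar1 over C5ar2 was 12.2 ± 0.348 in WT GM-CSF and 4.40 ± 0.843 in WT EMT6 medium libraries. The labelled Cysltr1-/- values were 9.96 ± 0.470 and 2.47 ± 0.316. The integrins that bind the C3 fragment iC3b fell: Itgax (-4.15 ± 0.08 and -4.74 ± 0.08), Itgb2 (-1.48 ± 0.05 and -2.01 ± 0.05), and Itgam (-2.24 ± 0.05 and -2.62 ± 0.06), with 68.7% of Itgam exon bases shared with Gm49368. C1qbp, a C1q-binding protein found mainly in mitochondria, fell (-1.14 ± 0.05 and -1.69 ± 0.05). Cd93, a receptor once described as binding C1q, rose with IL-6 from 276 ± 34.5 to 480.2 ± 20.1 CPM in WT (0.80 ± 0.06, adjusted p = 2.91e-14, edgeR) and from 232 ± 2.72 to 355 ± 20.2 in labelled-deficient marrow (0.61 ± 0.06). Cr2 lay at 0.675 to 2.86 times background.

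**Figure D4:**
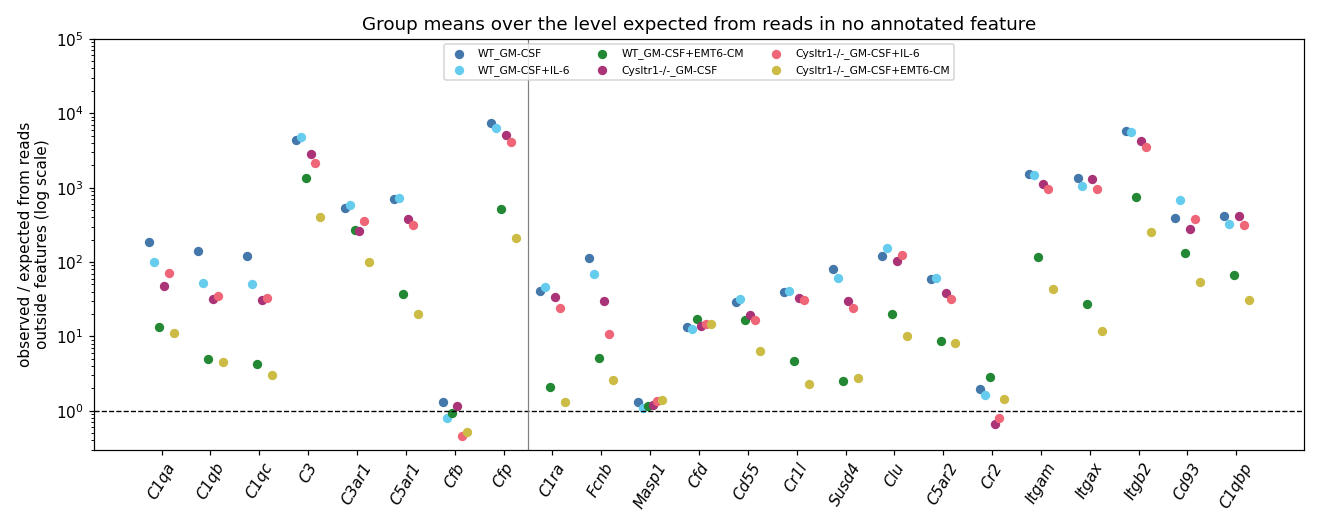
Group means of the 8 members (left of the line) and of 15 other complement genes, divided by the level expected from reads in no annotated feature (log scale; dashed line at 1). C3 and Cfp are over 200 times that level in all 6 groups, the C1q chains are at 3.06 to 13.6 times with EMT6 medium, and Cfb is at 0.465 to 1.30. The level takes all exon bases as countable, which for Cfb may not hold.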

How the data were processed

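Bulk RNA-seq of 18 libraries in 6 groups of 3 was used. Per the submitters' processing notes, the authors aligned reads with HISAT2 2.1.0 and counted them per feature with HTSeq 0.13.5 on mm10, and the deposited values are raw counts; DESeq2 1.34.0 is also named there. The annotation and strand setting are not given in the sources used here, so reads of genes that overlap on opposite strands cannot be told apart. All 55536 gene IDs matched GENCODE M21. Library sizes and tests leave out the 5 HTSeq summary lines, 97 empty spike-in entries and 26248 numbered entries, which held 0.0399% to 0.446% of the feature total. A deposited table of counts divided by 1 factor per library was not used.

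Counts were fitted with edgeR 4.0.16 in R 4.3.3 (TMM, filterByExpr, 1 mean per group, quasi-likelihood F test) over all 18 libraries, with Benjamini-Hochberg adjustment over the 28334 genes of each of 9 comparisons; genes under 0.05 are called. The SE is derived from the F statistic. CPM per kb uses the summed exon length. Background is exon length, shared bases included, times the density of reads in no feature. The common biological coefficient of variation was 0.048. In data simulated for IL-6 in WT (26355 genes), 14, 27, 45 and 50 of 50 genes changed 1.2-, 1.5-, 2- and 4-fold were recovered with 5 false calls. Genes to change were drawn from those with a mean of at least 1 CPM. Far fewer genes were changed than the 21.7% called in the data, so these rates do not describe the data. At 9.58 to 32.0 M counts per library, small changes of low genes such as Cfb can be missed. The simulation did not cover genes that low.

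The members, the lists and the tests were chosen with earlier results of these data known. Named genes are the 8 members, the other complement genes with a group mean of at least 5 CPM and, for each member, the 3 genes whose centred log2 CPM group means (prior count 1) were nearest among genes of at least 5 CPM in a group, without predicted-gene names. Hc is named outside this rule, after its values were seen. A mean of 5 CPM can be reached only in the groups where a gene is high, as for Fcnb, Cfd and Masp1. Differences of these genes between groups are therefore a description. Replicate numbers recur across groups. Deviations of same-numbered libraries had a median correlation of 0.0075 over 45 pairs (6 over 0.1), against -0.0013 over 90 pairs of unlike number (12 over 0.1). The pairs varied: WT GM-CSF with WT IL-6 gave 0.047, 0.141 and 0.300, and WT GM-CSF with WT EMT6 medium gave 0.028, -0.283 and -0.143. No pairing was used in the main fit. Alternatives were DESeq2 1.42.0, its size factors or library sizes alone in edgeR, no low-count filter or one at a mean of 5 CPM, only the groups compared, background subtraction, a replicate block and each library left out.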

Additional observations from a re-analysis of the deposited data

Results flagged for a closer look

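For these genes the effect of a culture differed between the genotypes in a test of the difference itself (edgeR's interaction contrast, adjusted p under 0.05 over all genes tested). The values are the log2 effect in labelled Cysltr1-/- marrow minus that in WT. Members were chosen with such values known, so their values and calls are a description and no test of them. For IL-6 the differences were 1.64 for C1qa, 1.75 for C1qb, 1.57 for C1qc, -0.34 for C3 and 0.46 for C3ar1, and -0.47 for C1ra among the other complement genes; the C1ra call was lost after background subtraction (-0.48, adjusted p = 0.191 by edgeR). For C1qa the effect was negative in WT and positive in labelled-deficient marrow, with no overlap between cultures in either genotype.

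For EMT6 medium the differences were 2.25 for C1qa, 2.56 for C1qb, 2.07 for C1qc, -0.52 for C3, 0.20 for C3ar1 and 0.59 for C5ar1. Among the other complement genes they were 1.48 for Fcnb, 1.01 for Masp1, 2.14 for Susd4, 1.12 for C5ar2, 1.05 for Cr2, -0.38 for Itgam, -0.59 for Itgax, -0.53 for Itgb2 and -0.55 for C1qbp. Masp1 and Cr2 lay near the level of reads outside annotated features, and Fcnb and Susd4 were at 2.54 to 5.21 times that level with EMT6 medium. Fcnb and Masp1 were named only through the groups where they were high, so their values and calls are a description. Reads outside features were more frequent in the EMT6 medium libraries of labelled-deficient marrow (50.2%) than in those of WT (36.2%), and their part in these differences was tested only by the subtraction. After it the call was lost for Masp1 (2.52, adjusted p = 0.169 by edgeR) and kept for Cr2 (5.74, adjusted p = 0.0127), Fcnb (1.13) and Susd4 (2.31, adjusted p = 1.69e-09). Without a low-count filter the calls of Masp1 (0.78, adjusted p = 0.0541) and Cr2 (0.82, adjusted p = 0.0549) were lost, as they were without WT GM-CSF replicate 3 (0.67) or labelled Cysltr1-/- GM-CSF replicate 1 (0.82) for Masp1 and without labelled Cysltr1-/- GM-CSF replicate 3 (0.81) for Cr2.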

How the results depend on the processing

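Over the members' fold changes, 1746 values under an alternative kept their direction and side of the threshold, 57 lost and 40 gained the call, and 6 reversed. The reversals were, with library sizes alone, C1qa with EMT6 medium in labelled Cysltr1-/- marrow (0.55), C3 with EMT6 medium in WT (0.27) and C5ar1 for the genotype with EMT6 medium (0.17); C3 with EMT6 medium in WT was also 0.046 with a filter at a mean of 5 CPM and 0.041 after background subtraction, and C3ar1 in the EMT6 medium interaction was -0.027 without a filter. With library sizes alone C5ar2 with EMT6 medium in labelled-deficient marrow was 0.47, and Cd93 with EMT6 medium was 0.35 there and 0.44 in WT; Cd93 was 0.051 and 0.21 with the filter at 5 CPM and 0.021 and 0.19 after subtraction. Fitting only the groups compared called 5 members for IL-6 in labelled-deficient marrow in place of 3. The filter at 5 CPM, under which fewer genes are tested, called 17, 15 and 12 of the other complement genes for EMT6 medium in each genotype (WT first) and for the genotype with EMT6 medium, in place of 32, 32 and 22, and 12611, 12914 and 9461 of all genes in place of 23045, 24700 and 14749. For the IL-6 interaction 1 other complement gene was called, against 3 without a filter, 2 with DESeq2 or its size factors, 2 with the filter at 5 CPM, 2 with only the groups compared, 2 after subtraction and 0 to 2 without a library. Leaving out a library gave 2 to 4 called members for IL-6 in labelled-deficient marrow and 4 to 6 in WT, 5 to 7 for the EMT6 medium interaction and 4 to 6 for the genotype with EMT6 medium. Library sizes alone shifted the median of all genes by 0.49 and 0.62 for EMT6 medium in WT and labelled-deficient marrow, by 0.12, 0.14 and 0.24 for the genotype in the 3 cultures and by 0.12 for the EMT6 medium interaction; DESeq2 size factors shifted them by -0.14 and -0.27 for EMT6 medium, -0.10 for the genotype with EMT6 medium and -0.13 for that interaction. Of all called genes, 57.5% were higher with EMT6 medium in WT (74.0% with library sizes alone), 62.3% in labelled-deficient marrow (77.6%), 36.9%, 39.6% and 62.0% for the genotype under GM-CSF, with IL-6 and with EMT6 medium (59.2%, 68.1% and 85.4%; 51.0% for the last with DESeq2 size factors), 38.7% for IL-6 in labelled-deficient marrow (28.0% with DESeq2 size factors) and 39.6% and 51.7% for the interactions (24.7% and 34.0%; 69.2% for EMT6 medium with library sizes alone). The replicate block changed no member's call, and 10 of 18 libraries correlated best on average with their own number. The cause of each change was not tested. Depth limits Cfb, at 3 to 16 counts.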

Other observations

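Over the 6 groups, the genes whose centred log2 group means were nearest to each member among 12001 genes are given with the root mean square difference, with no test; all values come from the same 18 libraries. Nearest to C1qa were Fxyd4 (0.22), Acot6 (0.23) and Lss, a cholesterol synthesis enzyme (0.27). C1qb was nearest to Tspoap1 (0.24), Pcyt1b (0.27) and Lss (0.32), and C1qc to Tspoap1 (0.26), the fatty acid synthase Fasn (0.27) and Pcyt1b (0.28). Fasn, for example, averaged 362 CPM in WT GM-CSF, 129 in WT IL-6 and 41.7 in WT EMT6 medium libraries; the labelled Cysltr1-/- means were 148, 101 and 45.2.

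The other members had closer neighbours. C3 was nearest to the growth factor receptor Met (0.06), Tmem86a (0.09) and Gnpda1 (0.11). C3ar1 was nearest to Nceh1, a cholesterol ester hydrolase (0.08), Mettl7a1 (0.08) and Per3 (0.10), and C5ar1 to Rflnb (0.10), the adhesion molecule Jaml (0.11) and the inhibitory receptor Pirb (0.13). Cfp was nearest to the prostaglandin synthase Ptgs1 (0.06), the integrin Itgam (0.07) and Actb, which encodes beta-actin (0.07). Cfb, with few counts in each library, was nearest to Id3 (0.17), the mitochondrial ribosomal RNA mt-Rnr1 (0.19) and BC064078 (0.20). Within the members, C5ar1 and Cfp were at 0.23 from each other and C3ar1 and C5ar1 at 1.37.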
